A study of Mus musculus with 10 samples.

Results

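Activity-regulated immediate early genes are the genes that neurons transcribe first after synaptic input, without waiting for new protein. Calcium entry and kinase signalling switch on transcription factors that already sit in the nucleus, chiefly CREB, SRF and MEF2, and these start Fos, Egr1, Arc, Npas4 and their like within minutes. A slower set, with Homer1, Bdnf and Nptx2 among its members, follows and reaches the synapse. In the hippocampus this programme is widely used as a record of recent neuronal activity and is tied to memory storage. The set described here held 34 such genes, taken by gene symbol from a written list, out of 19938 genes measured. It was divided into 21 fast genes and 13 late genes. Each of the 34 was carried by exactly 1 probe set annotated to that symbol alone, and 34 of 34 lay above the background level, which was set at a log2 value of 5.45 from olfactory receptor genes.

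The samples were whole hippocampi, left and right together, of male mice aged 16 weeks, with 1 Affymetrix Mouse Gene 1.0 ST array per mouse. There were 5 arrays of Dp1Yey mice, which carry a segmental duplication of mouse chromosome 16 from Lipi to Zbtb21 which adds an extra copy of the genes in it, and 5 arrays of control littermates. No member lies in the duplicated interval, so all 34 were present in the usual 2 copies in both groups. The labels name the C57BL/6N background for both groups, whereas the study's text names C57BL/6J. Mice were kept on a fixed light cycle. The time of day of dissection and the handling before it are not given in the sources used here, and the labels name no stimulus. Values are log2 units of robust multi-array average (RMA) signal, and whole tissue cannot tell fewer expressing cells from less RNA per cell. Markers of dentate granule cells (8 of 8) and of CA pyramidal cells (8 of 8) were above background. The interquartile range of an array, a measure of how spread out its values are, was 3.47 to 3.53 in Dp1Yey and 3.40 to 3.51 in control arrays. Its mean was 3.51 in Dp1Yey and 3.46 in control arrays, so it goes partly with the group. Differences refitted with it as a term are given for each group of members below. Such a refit can take away part of the group difference itself, and array spread and genotype cannot be told apart in it.

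Promoters of stimulus-responsive genes are known for short motifs through which their transcription factors act, chiefly the CRE, which CREB reads, and the CArG box, which SRF reads. RefSeq start sites of GRCm38 gave a window for 27 of the 34 members (41 windows, since some genes have several starts), and the 250 bases upstream of each start were searched on both strands. The core CRE letters TGACG were held by 19 of 27 members (70.4%), by 12 of 16 fast and 7 of 11 late genes, against 19.8% of 27025 genes. Counted by window, the shares were 56.1% of the members' 41 windows and 17.8% of 32851 windows. The full palindrome TGACGTCA, in which both strands hold the core, was present in 4 of 27 members (Btg2, Dusp1, Maff and Plk2), against 1.77% of all genes. A CArG box was present in 2 of 27, Egr2 and Dusp5, against 1.62%. Member windows were richer in G and C, with a median of 62% against 52.4% in all windows. The windows of Homer1, Per1 and Inhba are shown because these genes, after Egr1, had the most correlated partners below, and that of Inhba holds neither motif. Those of Fos and Npas4 are shown as the pair correlated with each other. Those of Egr2, Egr4 and Dusp5 are shown as genes among the 5 with the smallest p-values between the groups. The others of these 5 are Nptx2, which had no window, and Jun, whose window is not shown and holds neither motif. For Homer1, Per1 and Egr2, which have several starts, 1 window each is given. Capitals mark TGACG, or CGTCA where it lies on the other strand, and the CArG boxes.
Homer1, chr13:93303507-93303756, plus strand: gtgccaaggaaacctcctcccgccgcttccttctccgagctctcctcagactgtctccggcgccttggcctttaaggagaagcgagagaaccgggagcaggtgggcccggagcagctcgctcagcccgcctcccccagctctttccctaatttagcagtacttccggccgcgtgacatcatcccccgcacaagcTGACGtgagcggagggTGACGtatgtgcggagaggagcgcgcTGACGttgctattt
Per1, chr11:69098699-69098948, plus strand: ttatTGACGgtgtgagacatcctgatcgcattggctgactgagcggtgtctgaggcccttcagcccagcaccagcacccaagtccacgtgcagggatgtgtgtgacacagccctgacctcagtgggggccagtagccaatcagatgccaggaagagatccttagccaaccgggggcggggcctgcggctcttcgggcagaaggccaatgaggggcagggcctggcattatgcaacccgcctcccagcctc
Fos, chr12:85473640-85473889, plus strand: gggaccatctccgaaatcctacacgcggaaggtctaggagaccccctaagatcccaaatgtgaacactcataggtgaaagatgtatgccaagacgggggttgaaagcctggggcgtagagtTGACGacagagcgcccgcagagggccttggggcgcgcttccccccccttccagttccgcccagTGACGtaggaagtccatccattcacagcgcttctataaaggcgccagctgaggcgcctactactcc
Npas4, chr19:4989972-4990221, minus strand: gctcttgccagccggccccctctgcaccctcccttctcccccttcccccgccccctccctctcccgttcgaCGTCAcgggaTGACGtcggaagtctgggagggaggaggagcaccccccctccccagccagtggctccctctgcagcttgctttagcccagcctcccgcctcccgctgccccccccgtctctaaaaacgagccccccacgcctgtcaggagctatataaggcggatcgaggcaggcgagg
Egr2, chr10:67537619-67537868, plus strand: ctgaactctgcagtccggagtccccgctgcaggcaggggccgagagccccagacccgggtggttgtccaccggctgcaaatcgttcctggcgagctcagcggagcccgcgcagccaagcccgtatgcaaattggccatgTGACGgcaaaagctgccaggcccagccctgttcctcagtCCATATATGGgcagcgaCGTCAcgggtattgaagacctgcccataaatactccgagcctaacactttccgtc
Egr4, chr6:85513590-85513839, minus strand: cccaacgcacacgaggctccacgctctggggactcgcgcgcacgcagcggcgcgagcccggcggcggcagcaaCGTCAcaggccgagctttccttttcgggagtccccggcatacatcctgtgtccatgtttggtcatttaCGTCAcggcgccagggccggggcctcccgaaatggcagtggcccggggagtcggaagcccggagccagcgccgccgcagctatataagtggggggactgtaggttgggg
Dusp5, chr19:53528895-53529144, plus strand: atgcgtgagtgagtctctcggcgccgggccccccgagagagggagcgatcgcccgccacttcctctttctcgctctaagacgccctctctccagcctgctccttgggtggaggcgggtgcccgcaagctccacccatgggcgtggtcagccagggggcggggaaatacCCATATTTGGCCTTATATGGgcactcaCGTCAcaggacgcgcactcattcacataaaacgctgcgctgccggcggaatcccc
Inhba, chr13:16011601-16011850, plus strand: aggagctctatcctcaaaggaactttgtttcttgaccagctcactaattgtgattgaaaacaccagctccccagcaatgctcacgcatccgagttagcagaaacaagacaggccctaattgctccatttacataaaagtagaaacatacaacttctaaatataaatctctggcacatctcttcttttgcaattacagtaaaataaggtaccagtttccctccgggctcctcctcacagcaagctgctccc
A match is a run of letters and not a shown binding site, and no match says only that these letters are not in the window.

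Across single arrays the 34 genes were variable. The spread between mice of one group, taken as the SD pooled over both groups, lay above the 90th percentile of the 15162 genes above background for 21 of 34 members, and above their median for 30. Of the 21, 13 were fast and 8 late. Arc, whose protein shapes the traffic of glutamate receptors at the synapse, was the most variable member (pooled SD 0.258 log2 units, 99.0th percentile). Inhba, a subunit of the secreted factor activin, followed at 0.244, and Per1, a clock gene that also answers to neuronal activity, at 0.227. Bdnf, the neurotrophin, was the steadiest member (0.0484, 11.0th percentile), and Plk2, a kinase that weakens active synapses, came next (0.0573). The plot of spread against level shows that the variable members were not confined to low levels.

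**Figure D1:**
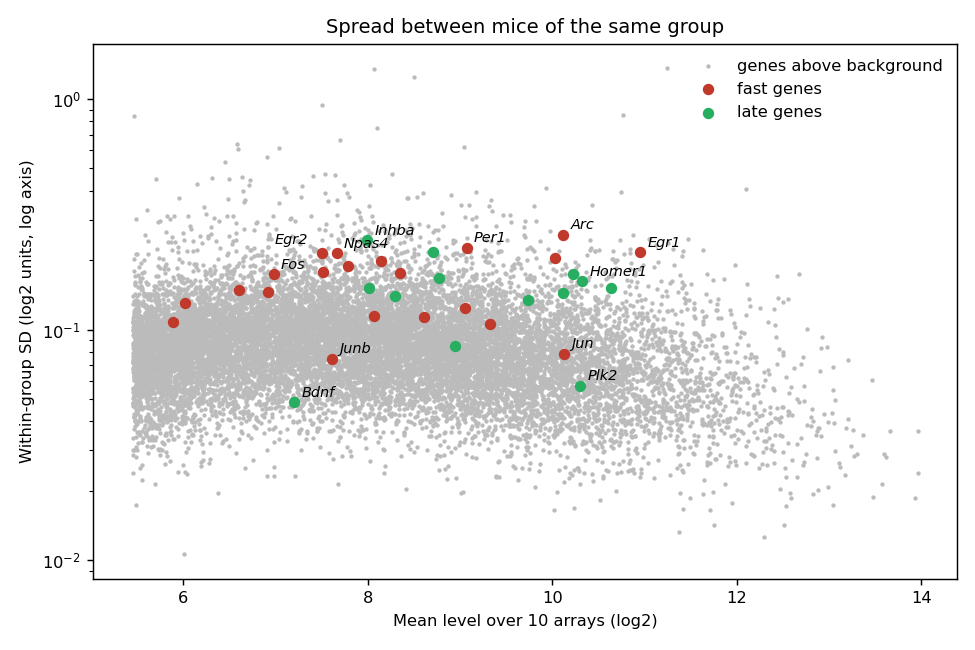
Spread between mice of one group (pooled SD of 5 Dp1Yey and 5 control arrays, in log2 units on a log axis) against mean level (log2), for genes above background (grey), fast members (red) and late members (green). Arc (0.258), Inhba (0.244) and Per1 (0.227) sit near the top, Bdnf (0.0484) and Plk2 (0.0573) near the bottom.

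The spread was shared: some mice were high for most members and others low for most. In Dp1Yey replicate 2, 32 of 34 members lay above their own mean over the 10 arrays and 17 had their highest value. Dp1Yey replicates 3 and 4 and control replicate 5 were also high, with 30, 27 and 28 members above their mean. Dp1Yey replicate 5 and control replicate 3 were the opposite, with 4 members above the mean in each. The others lay between, with 16 in Dp1Yey replicate 1 and 11, 11 and 20 in control replicates 1, 2 and 4. Both groups therefore held high and low mice.

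**Figure D2:**
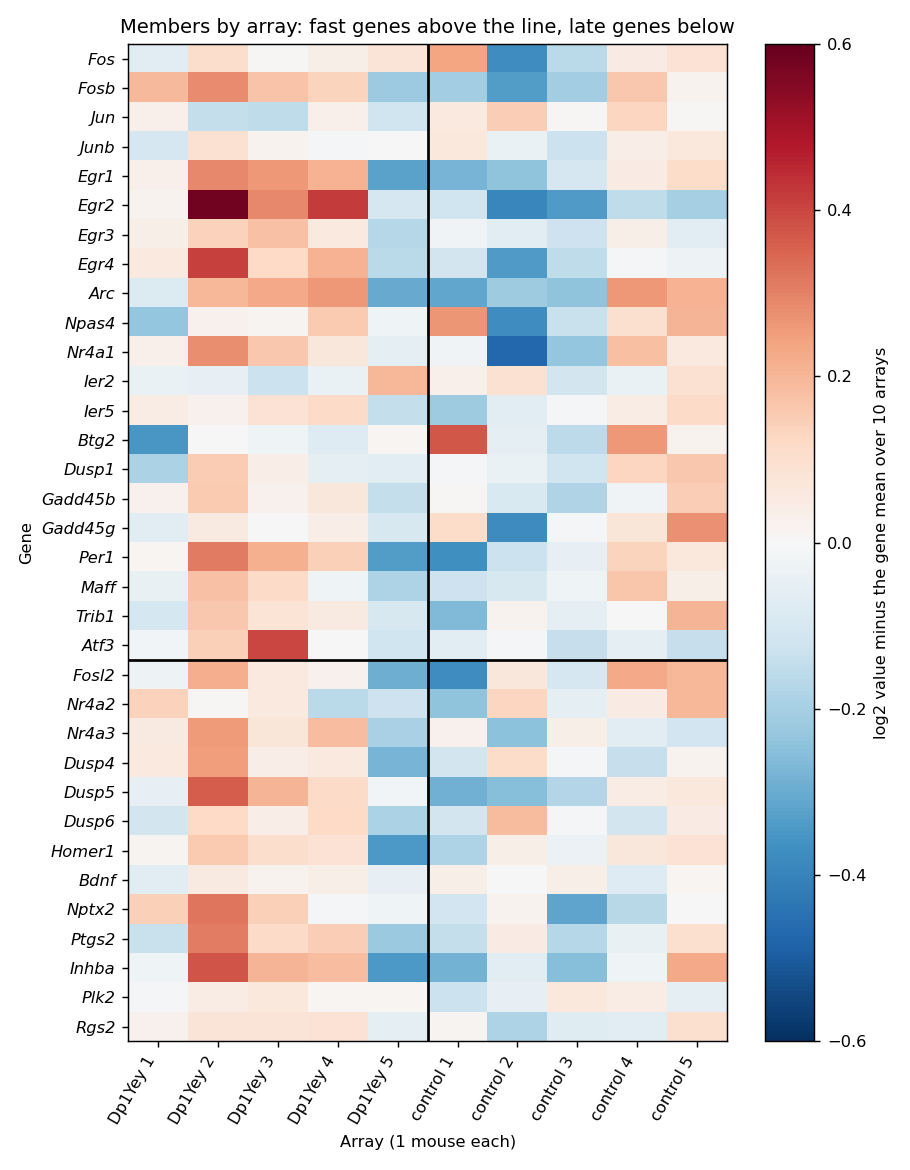
Log2 value of each member (rows, fast genes above the line and late genes below) in each of the 10 arrays (columns, 5 Dp1Yey then 5 control), minus the mean of that gene over the arrays. Dp1Yey replicate 2 is above the mean for 32 of 34 members and Dp1Yey replicate 5 for 4.

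Averaged over the fast genes, the deviation from the mean was -0.039, 0.16, 0.10, 0.086 and -0.11 log2 units in Dp1Yey replicates 1 to 5. In control replicates 1 to 5 it was -0.047, -0.16, -0.13, 0.073 and 0.069. The ranges of the groups overlapped widely, with high and low mice in both. For the late genes the deviation was 0.0020, 0.20, 0.093, 0.069 and -0.16 in Dp1Yey and -0.15, -0.015, -0.083, -0.021 and 0.068 in control replicates. Fast and late means went together over the 10 arrays (r = 0.79, rho = 0.78, and r = 0.75 with group means removed), as a description of arrays that share their RNA and their normalisation. Control replicate 2 was lowest of all for the fast genes but near the middle for the late genes, and in control replicate 4 the fast mean was above 0 and the late mean below it. The same arrays also differed in their interquartile range, with which the fast mean had r = 0.63 and rho = 0.61 and the late mean r = 0.60 and rho = 0.66. With the array median the fast mean had r = -0.65 and rho = -0.71, and the late mean r = -0.56 and rho = -0.72. The array median was not regressed out, and results with each array centred on its median are given below. Of the members, 30 of 34 correlated above 0 with the interquartile range (median r = 0.44), whereas the median over all genes above background was -0.024. The pair correlations below are also given with the interquartile range regressed out.

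**Figure D3:**
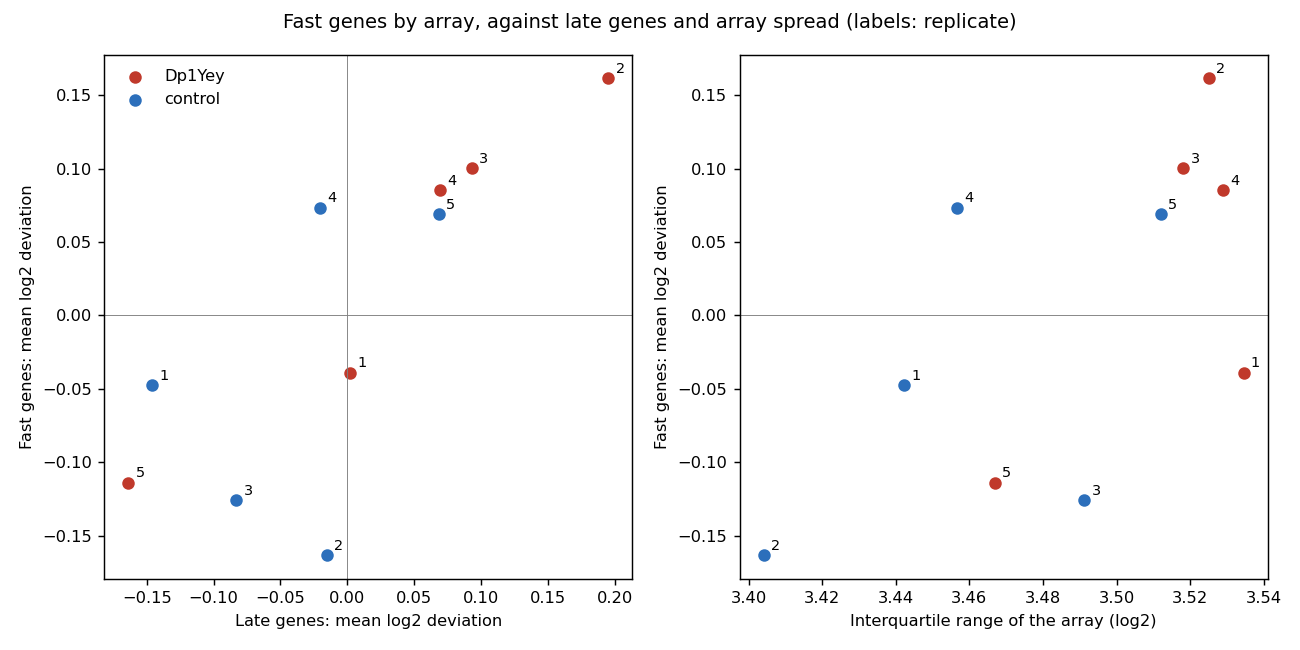
Mean log2 deviation of the 21 fast genes in each array against that of the 13 late genes (left) and against the interquartile range of the array in log2 units (right), with Dp1Yey arrays in red, control arrays in blue and replicate numbers beside the points. Dp1Yey replicate 2 is highest on both means (0.16 and 0.20), and both groups span values above and below 0.

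Pair by pair, with group means removed, the median correlation was 0.47 among the 210 pairs of fast genes, 0.46 among the 78 pairs of late genes and 0.39 between fast and late genes (273 pairs). Over all pairs of genes above background it was 0.043. Over all 561 pairs of members it was 0.42, and 460 were above 0. When the interquartile range of the arrays was regressed out as well, the medians were 0.42 among fast and 0.36 among late genes. In the 5 Dp1Yey arrays alone the median over all members was 0.69, and in the 5 control arrays alone it was 0.24. The late genes differed more between the groups in this respect (0.77 and 0.28) than the fast genes (0.60 and 0.43). For a core of 12 fast genes the order was reversed, at 0.55 in Dp1Yey and 0.65 in control arrays. For a core of 6 late genes it was 0.68 in Dp1Yey and 0.015 in control arrays. The median over all genes was not taken from the arrays of 1 group alone. The difference between the groups was not tested, each value rests on 5 arrays, and the Dp1Yey arrays include replicate 2, with 32 members above their mean over the 10 arrays, and replicate 5, with 4.

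Tested across the 10 arrays with an exact permutation test over all orders of the arrays, 46 of 561 pairs passed at a Benjamini-Hochberg adjusted p under 0.05, and all 46 were positive. They were 20 of 210 fast pairs, 6 of 78 late pairs and 20 of 273 mixed pairs. The test was not run over all pairs of genes, so no background share of passing pairs can be given. With group means removed, r was above 0.6 in 30.7% of member pairs and 8.86% of all pairs of genes above background. By Spearman's rho, 21 of the 561 pairs passed. Without the 2 arrays farthest from the median of the pair's first gene, 42 of the 46 kept an r above 0.6. The count was 130 when each array was centred on its median and 34 when group means were removed and values permuted within groups. With fewer arrays it fell: it was 5 without Dp1Yey replicate 3, 9 without Dp1Yey replicate 2, 15 without Dp1Yey replicate 4, 23 without control replicate 3, 29 without Dp1Yey replicate 1 and 30 without control replicate 1.

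Egr1, a zinc finger transcription factor, had the most partners, with 10 pairs passing, followed by Homer1 and Per1 with 8 each, Inhba with 7, and Arc and Egr4 with 6 each. The closest pair was Egr1 with Per1 (r = 0.958, exact permutation p = 4.68e-06, adjusted p = 0.00155, rho = 0.976, r = 0.952 without the 2 farthest arrays). Homer1, a postsynaptic scaffold gene, went with Inhba (r = 0.867, exact permutation p = 5.51e-06, adjusted p = 0.00155, rho = 0.927, r = 0.960 without 2 arrays). The former is a pair of fast genes and the latter a pair of late genes. Egr2 and Egr4, sister zinc finger factors, also moved together (r = 0.938, exact permutation p = 3.33e-05, adjusted p = 0.00624, rho = 0.842, r = 0.838 without 2 arrays). So did Ptgs2, the inducible cyclooxygenase, with Inhba (r = 0.937, exact permutation p = 0.000118, adjusted p = 0.0115, rho = 0.891, r = 0.882 without 2 arrays). Fosb, a partner of Jun in AP-1, went with the nuclear receptor Nr4a1 (r = 0.868, exact permutation p = 0.000113, adjusted p = 0.0115, rho = 0.830, r = 0.837 without 2 arrays). Bdnf, Btg2, Ier2, Jun, Nptx2, Nr4a2, Plk2 and Rgs2 had no pair that passed. Not passing does not show that a gene went with no other member. With group means removed, Rgs2 had r = 0.916 with Gadd45g, and Btg2 had 0.823 with Junb, as the highest values of these 2 genes.

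**Figure D4:**
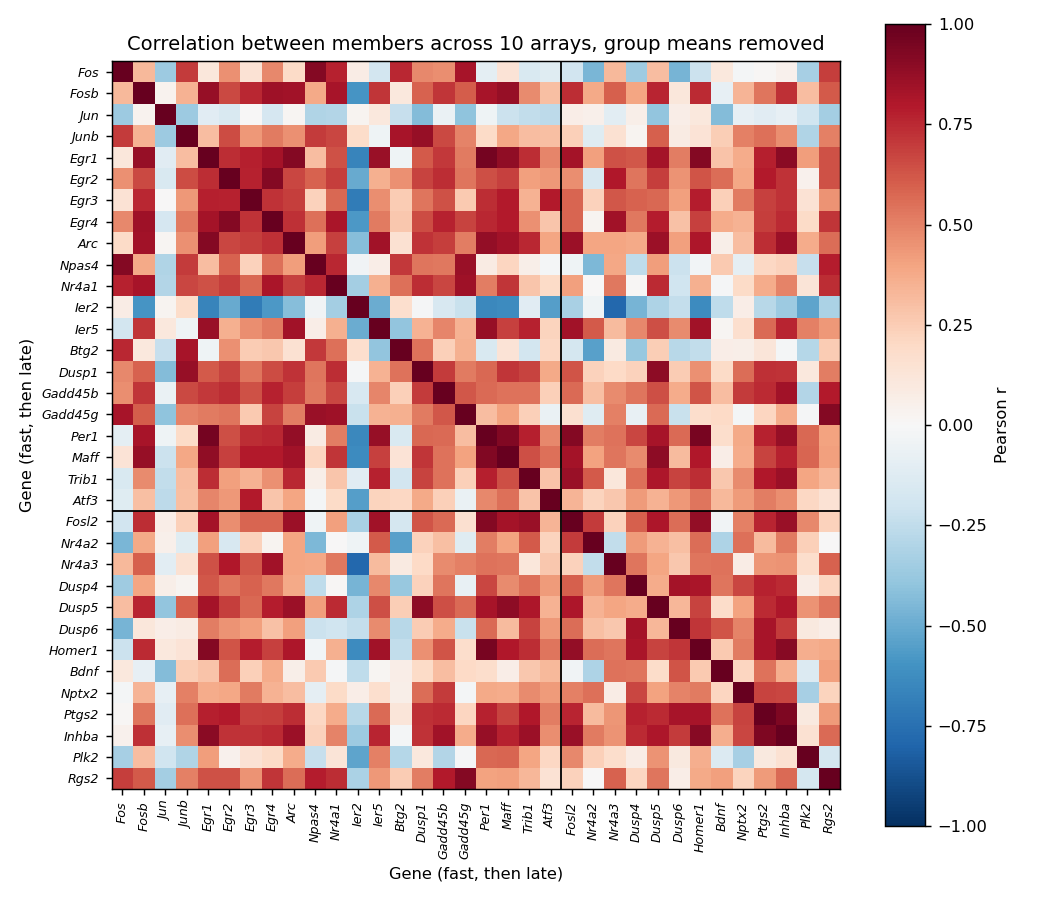
Pearson correlation between each pair of the 34 members across 10 arrays after group means were removed, with fast genes first and late genes after the line. Most cells are above 0 (460 of 561 pairs). Jun and Ier2 are the bluest rows, Bdnf and Plk2 are pale, and Btg2 and Fos also hold several cells below 0.

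Fos, the most used marker of the programme, had Npas4, Gadd45g and Nr4a1 as its closest partners by r. Its log2 value was 6.92, 7.09, 6.99, 7.02 and 7.06 in Dp1Yey replicates 1 to 5 and 7.22, 6.61, 6.82, 7.03 and 7.07 in control replicates 1 to 5. The control values spread more (SD 0.24) than the Dp1Yey values (SD 0.069), and control replicates 1 and 2 were the highest and lowest of all. Of the 33 other members, 1 correlated with Fos at an adjusted p under 0.05 over the 33, the neuron-specific factor Npas4 (r = 0.882, permutation p = 0.00064, adjusted p = 0.0211, rho = 0.806). By rho Npas4 did not pass (adjusted permutation p = 0.119). Npas4 read 7.43, 7.69, 7.68, 7.82 and 7.64 in Dp1Yey and 7.93, 7.29, 7.53, 7.76 and 7.87 in control replicates. Like Fos, it was highest in control replicate 1 and lowest in control replicate 2. Without control replicates 2 and 3, the arrays farthest from the median of Fos, r with Npas4 was 0.754 and no member passed. In these remaining arrays r with Fos was 0.457 for Gadd45g and -0.128 for Nr4a1, while it was 0.811 for Btg2 and 0.753 for Junb. Junb, another AP-1 partner, had the highest rank correlation with Fos and was the only member that passed by rho (rho = 0.891, permutation p = 0.00136, adjusted p = 0.0449, r = 0.684). Gadd45g, a stress-inducible gene, had r = 0.783 with Fos and 0.866 with Npas4, and the latter pair was among the 46 (exact permutation p = 0.000653, adjusted p = 0.0215, rho = 0.915, r = 0.708 without 2 arrays). Egr1 (r = 0.188), Arc (0.232), Per1 (-0.023) and Homer1 (-0.205) had adjusted p-values with Fos of 0.892 to 0.979 by permutation. With group means removed and Fos permuted within groups (exact, 14400 orders), no member passed, and Npas4 had an adjusted p of 0.0825.

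Between the groups, no member was upregulated and none downregulated at an adjusted p under 0.05 in the limma fit over all genes, which called 159 of 19938 genes (0.797%). At an unadjusted p under 0.05, 4 members were higher in Dp1Yey (Egr2, Nptx2, Dusp5 and Egr4) and 1 was lower (Jun), 5 of 34 against 19.5% of all genes. Egr2 was the only member whose groups did not overlap, against 4.86% of all genes. A rank statistic rewritten from the study's approach called Egr2, Egr4, Dusp5 and Nptx2 upregulated, where it called 3.46% of all genes. In all, 24 of 34 members were higher in Dp1Yey, 14 of 21 fast and 10 of 13 late, and the median difference was 0.052 log2 units against -0.015 over all genes. The signs are not independent, since the members move together from mouse to mouse as described above. When array interquartile range was added to the fit, 14 members turned sign, 14 of 34 were higher and the median difference was -0.027. As that range was itself higher on average in Dp1Yey, this refit cannot tell array spread from genotype.

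**Figure D5:**
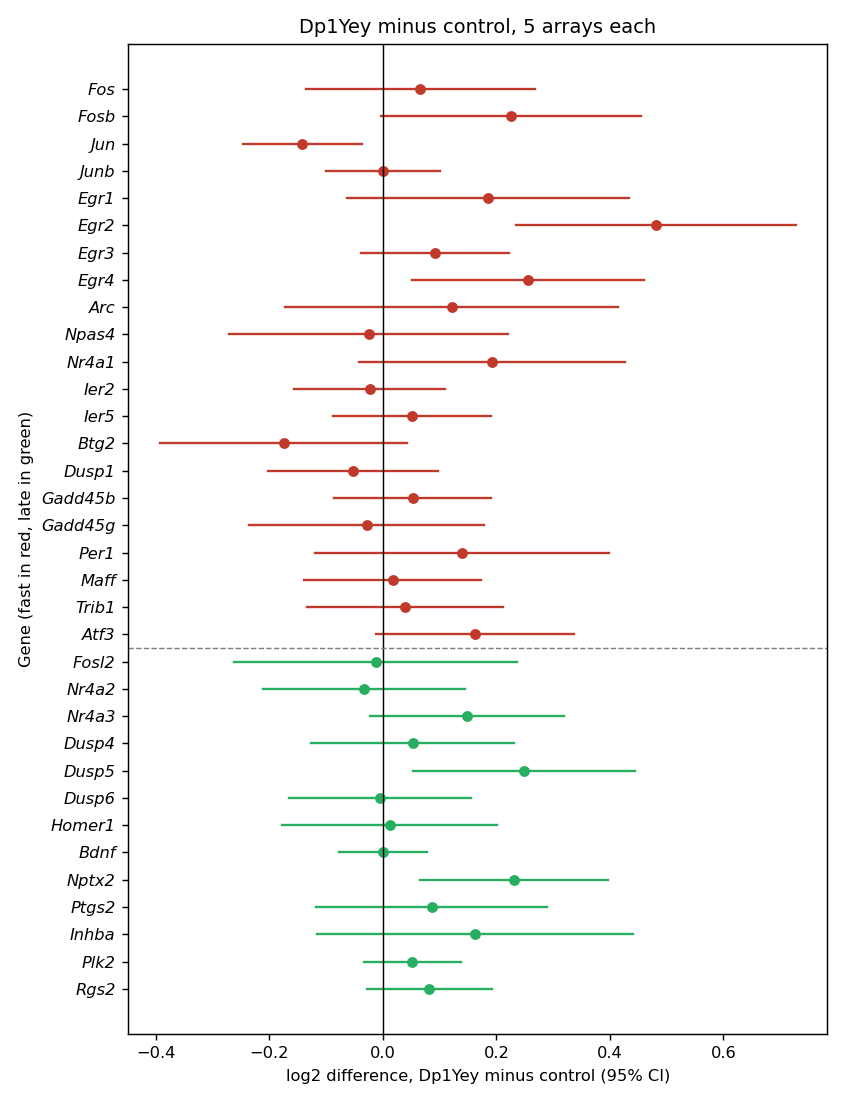
Log2 difference between 5 Dp1Yey and 5 control arrays for each member, with the 95% confidence interval of the limma fit, fast genes in red above the dashed line and late genes in green below. Egr2 (0.48) lies farthest from 0, and the intervals of Egr2, Egr4, Dusp5, Nptx2 and Jun do not reach 0 before adjustment.

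The Egr family of zinc finger transcription factors was higher in Dp1Yey in 4 of 4 members, with a median difference of 0.22 log2 units. With the interquartile range of the arrays in the fit, 3 of 4 were higher, the median was 0.066 and Egr1 turned to -0.046. Egr2 read 7.52, 8.08, 7.79, 7.92 and 7.40 in Dp1Yey and 7.38, 7.11, 7.16, 7.35 and 7.30 in control replicates. The lowest Dp1Yey mouse, replicate 5, was just above the highest control mouse, replicate 1. The difference was 0.48 (95% CI 0.24 to 0.73, 1.40-fold), with an unadjusted limma p of 0.00109 and an adjusted p of 0.0716. Without Dp1Yey replicate 5 it was 0.57 with an adjusted p of 0.0296, and with the array spread in the fit it was 0.36 with an adjusted p of 0.614. Egr4 read 8.41, 8.76, 8.47, 8.56 and 8.19 in Dp1Yey and 8.24, 8.01, 8.20, 8.34 and 8.32 in control replicates. Here 4 of 5 Dp1Yey mice exceeded the highest control mouse, while replicate 5 fell within the control range. The difference was 0.26 (95% CI 0.051 to 0.46, adjusted p = 0.182 in limma), and it was 0.087 with the array spread in the fit. Egr1 read 10.98, 11.24, 11.21, 11.16 and 10.63 in Dp1Yey and 10.67, 10.71, 10.85, 11.00 and 11.06 in control replicates. Its Dp1Yey group held both the highest mice and the lowest mouse, so all control mice lay within the Dp1Yey range. The difference was 0.19 (95% CI -0.063 to 0.43, adjusted p = 0.371 in limma). Egr3, with a difference of 0.092 (adjusted p = 0.396), ran from 9.15 to 9.50 in Dp1Yey and from 9.20 to 9.36 in control mice. Sister genes of a family can share stretches of sequence, and the probe sets were used as annotated.

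The AP-1 genes, whose proteins pair to form the Fos and Jun transcription factors, went in both directions, with 4 of 7 higher and a median difference of 0.018. With the array spread in the fit, 4 of 7 were higher and the median was 0.00021. Fosb read 8.33, 8.42, 8.31, 8.27 and 7.92 in Dp1Yey and 7.93, 7.80, 7.93, 8.30 and 8.16 in control replicates. Dp1Yey replicates 1 to 3 were above every control mouse, and Dp1Yey replicate 5 was among the low controls. Its difference was 0.23 (95% CI -0.0028 to 0.45, adjusted p = 0.261 in limma), and it was 0.026 with the array spread in the fit. Jun, the member of smallest p among those lower in Dp1Yey, stood at 10.16, 9.99, 9.98, 10.16 and 10.01 in Dp1Yey and 10.19, 10.28, 10.14, 10.26 and 10.14 in control replicates. All 5 Dp1Yey mice were below the control mean, though replicates 1 and 4 lay within the control range. The difference was -0.14 (95% CI -0.25 to -0.037, adjusted p = 0.158 in limma). Junb read 7.51, 7.70, 7.63, 7.60 and 7.61 in Dp1Yey and 7.67, 7.57, 7.48, 7.65 and 7.67 in control replicates. Its group means were nearly equal, with a 95% interval of the difference from -0.10 to 0.10. Fos itself had a difference of 0.066 (95% CI -0.14 to 0.27, adjusted p = 0.703). Atf3, a factor induced by stress, had one of the larger differences (0.16, adjusted p = 0.285), and its Dp1Yey replicate 3 stood at 7.00 while the other 9 mice lay between 6.46 and 6.74. Maff (0.018) and Fosl2 (-0.013), further partners of the family, had adjusted p-values of 0.909 and 0.961.

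Among the nuclear receptors and related factors, 3 of 5 were higher, with a median difference of 0.14, which is the value of Per1. With the array spread in the fit, 2 of 5 were higher, the median was -0.063, Per1 turned to -0.063, and Nr4a1 and Nr4a3 stood at 0.030 and 0.016. Nr4a1, an orphan nuclear receptor, read 10.06, 10.31, 10.19, 10.10 and 9.97 in Dp1Yey and 10.01, 9.56, 9.80, 10.21 and 10.09 in control replicates. The Dp1Yey mice spread less (SD 0.13) than the control mice (SD 0.26), and control replicates 2 and 3 were the lowest of all. The difference was 0.19 (95% CI -0.042 to 0.43, adjusted p = 0.335 in limma). Its relative Nr4a3 differed by 0.15 (adjusted p = 0.313), with 4 of 5 Dp1Yey mice above the highest control mouse, and Nr4a2 by -0.034 (adjusted p = 0.839). Npas4 had a difference of -0.025 (95% CI -0.27 to 0.22, adjusted p = 0.916), with wide overlap. Per1 had a difference of 0.14 (adjusted p = 0.516), and it was lowest in control replicate 1 and Dp1Yey replicate 5, at 8.70 and 8.73.

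The dual-specificity phosphatases switch off the MAP kinases that drive the programme, and 2 of 4 were higher, or 1 of 4 with the array spread in the fit. Dusp5 read 8.72, 9.13, 8.97, 8.88 and 8.75 in Dp1Yey and 8.48, 8.51, 8.59, 8.81 and 8.83 in control replicates. All 5 Dp1Yey mice were above the control mean and 3 above the highest control mouse. The difference was 0.25 (95% CI 0.053 to 0.44, adjusted p = 0.178 in limma), and it was 0.12 with the array spread in the fit and 0.15 without control replicates 1 and 2. Dusp1 (-0.053, adjusted p = 0.676), Dusp4 (0.052, adjusted p = 0.738) and Dusp6 (-0.0057, adjusted p = 0.973) lay close to 0. Dusp4 and Dusp6, both late genes, were a pair that passed across arrays (r = 0.815, exact permutation p = 0.00289, adjusted p = 0.0416, rho = 0.806, r = 0.753 without 2 arrays).

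The effectors that act at the synapse were higher in 6 of 6, by a median of 0.067. With the array spread in the fit, 2 of 6 were higher and the median was -0.016, with Arc at -0.085, Homer1 at -0.12, Bdnf at -0.016 and Rgs2 at -0.016. Nptx2, a secreted pentraxin that gathers glutamate receptors, read 8.43, 8.61, 8.43, 8.28 and 8.26 in Dp1Yey and 8.17, 8.31, 7.97, 8.12 and 8.29 in control replicates. Dp1Yey replicates 1 to 3 exceeded every control mouse. The difference was 0.23 (95% CI 0.065 to 0.40, adjusted p = 0.151 in limma), and it was also 0.23 with the array spread in the fit. Arc read 10.04, 10.32, 10.35, 10.38 and 9.82 in Dp1Yey and 9.81, 9.91, 9.88, 10.38 and 10.33 in control replicates. Dp1Yey replicates 2 to 4 and control replicates 4 and 5 were the high mice, and the difference was 0.12 (95% CI -0.17 to 0.41, adjusted p = 0.623). Homer1 read 10.34, 10.48, 10.43, 10.41 and 9.98 in Dp1Yey and 10.14, 10.36, 10.29, 10.39 and 10.41 in control replicates. Dp1Yey replicate 5 lay far below the other 4, and the difference over all mice, with short and long Homer1 forms not told apart here, was 0.012 (95% CI -0.18 to 0.20, adjusted p = 0.951). Bdnf read 7.13, 7.25, 7.22, 7.23 and 7.15 in Dp1Yey and 7.23, 7.20, 7.23, 7.12 and 7.21 in control replicates. It was level between the groups within a narrow interval, with a difference of 0.00056 (95% CI -0.077 to 0.079). Plk2 (0.052, adjusted p = 0.461) and Rgs2, a brake on G protein signalling (0.082, adjusted p = 0.375), completed the group.

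Of the remaining members, Inhba differed by 0.16 (95% CI -0.12 to 0.44, adjusted p = 0.481) and Ptgs2 by 0.086 (adjusted p = 0.616), and with the array spread in the fit these values were -0.029 and 0.012. Both ran from a low in Dp1Yey replicate 5 to a high in Dp1Yey replicate 2, which for Inhba were 7.65 and 8.37. The growth and stress genes were higher in 3 of 6, and in 1 of 6 with the array spread in the fit, where Ier5 turned to -0.073. Btg2, which restrains cell division, had the lowest difference of all members (-0.17, 95% CI -0.39 to 0.043, adjusted p = 0.343), and Ier2 (-0.024), Gadd45g (-0.028), Ier5 (0.051), Gadd45b (0.052) and Trib1 (0.039) had adjusted p-values of 0.655 to 0.888. For Fos and Gadd45g the control mice were the more variable (SD 0.24 each, against 0.069 and 0.068 in Dp1Yey). For Egr2, Egr3 and Atf3 it was the Dp1Yey mice (SD 0.28, 0.14 and 0.20, against 0.12, 0.059 and 0.058). These differences in spread were not tested.

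A list of 50 further activity-regulated genes, of which 47 were measured, showed 0 upregulated and 0 downregulated genes. In Dp1Yey 32 were higher, with a median difference of 0.044. At an unadjusted limma p under 0.05, 6 of the 47 were higher and 0 lower, against 19.5% of all genes in either direction. The smallest adjusted p was that of Igf1, a growth factor of interneurons (0.21, adjusted p = 0.0533 in limma). It was followed by the neuropeptide precursor Vgf (0.15, 0.134), Rgs4 (0.15, 0.157) and Stk40 (0.15, 0.160). Of the 46 above background, 40 correlated above 0 with the mean of the fast members after group means were removed (median r = 0.38, against -0.066 over 15128 other genes). Zfp36, which destabilises inflammatory messages, had the highest r of this list (0.918), then Ddit4 (0.914) and Errfi1 (0.887). The regulators that act upstream, such as CREB, SRF, MEF2, calcium kinases and glutamate receptors, were measured for 30 of 35, with 0 called, 15 higher and a median of -0.0059. Camk4, the nuclear calcium kinase that activates CREB, had a difference of 0.23 (adjusted p = 0.0665), Mef2a 0.12 (0.131), Elk4 0.16 (0.154) and Crebbp -0.068 (0.245). At an unadjusted p under 0.05, 3 of the 30 were higher and 1 was lower, against 19.5% of all genes. Their median r with the fast mean was -0.10, with 12 of 30 above 0. Without removing group means, the mean of this list had r = -0.046 and rho = -0.030 with the fast mean. With the late mean it had r = 0.49 and rho = 0.50, which was not tested.

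Over all 15128 other genes above background, those most like the fast mean were Spsb1 (group-centred r = 0.953), Arrdc4 (0.949), Carhsp1 (0.926), Zfp36 (0.918), Ddit4 (0.914), Irak2 (0.912), Kdm6b (0.902), Pdk4 (0.901), Ada (0.898) and Dact1 (0.888), over 10 arrays. The most opposed were 4930583K01Rik (-0.950), Fam169b (-0.936), Dnaaf3 (-0.909), Trmt5 (-0.908) and Irf8 (-0.906). These are the extremes of many genes and are given as a description. None of them was called between the groups, with adjusted p-values from 0.245 to 0.964.

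Other gene sets that moved with the fast mean from array to array are given with their values, and their part in the pattern was not tested. Genes known to answer to glucocorticoids had a median r of 0.50 (12 of 13 above 0) and heat shock genes 0.52 (9 of 9), and no gene of either list was called between the groups by limma. The glucocorticoid list includes Errfi1, which is also on the list of further activity genes, and Pdk4, named above among those most like the fast mean. Without removing group means, the mean of the glucocorticoid list had r = 0.66 and rho = 0.61 with the fast mean. With the late mean these were 0.72 and 0.61. The mean of the heat shock list had r = 0.51 and a lower rho of 0.24 with the fast mean, and r = 0.56 and rho = 0.39 with the late mean. At an unadjusted p under 0.05, 3 of the 13 glucocorticoid genes were higher and 1 lower, and 0 of the 9 heat shock genes passed, against 19.5% of all genes. The metallothioneins Mt2 (0.30, adjusted p = 0.134 in limma) and Mt1 (0.31, 0.143) and Sult1a1 (0.25, 0.149) led the former list, and Bag3 (0.20, 0.286), Hspa5 (-0.21, 0.367) and Hspb1 (-0.18, 0.617) the latter. Clock genes other than Per1 had a median r of 0.13, and Per3 (-0.16, 0.168), Nr1d1 (-0.14, 0.261) and Bhlhe41 (0.13, 0.285) were not called. The mean of the clock list had r = 0.22 and rho = 0.018 with the fast mean, and r = 0.53 and rho = 0.39 with the late mean. Choroid plexus markers, foreign to the hippocampus proper, were measured for 7 of 8 and were lower in Dp1Yey in 7 of 7. They were led by Aqp1 (-0.39, adjusted p = 0.0759 in limma), Slc4a5 (-0.52, 0.134) and Folr1 (-0.62, 0.137). Their median difference was -0.58. At an unadjusted p under 0.05, 6 of the 7 were lower, against 19.5% of all genes in either direction, and 0 were called. Their mean deviation ran from -0.64 to -0.017 in Dp1Yey and from -0.45 to 1.05 in control mice, and it had r = 0.059 with the fast mean (0.39 with group means removed) and r = -0.35 with the late mean. Among cells of the tissue, the median r with the fast mean was 0.087 for CA pyramidal, -0.21 for dentate granule, -0.48 for vascular, -0.22 for microglial, -0.38 for astrocyte and 0.38 for oligodendrocyte markers, and -0.33 for markers of striatum and thalamus. No marker was called. The nearest of each list were Wfs1 (0.42, adjusted p = 0.0533), Trpc6 (-0.18, 0.134), Slco1a4 (0.34, 0.0586), Siglech (0.26, 0.0662), Gfap (0.10, 0.179), Mobp (0.094, 0.479) and Lef1 (0.086, 0.264). These are single genes, and each of these lists held genes in both directions. In Dp1Yey 5 of 8 CA pyramidal, 2 of 8 dentate granule, 7 of 9 vascular and 6 of 7 microglial markers were higher. So were 4 of 6 astrocyte, 4 of 5 oligodendrocyte and 4 of 6 striatum and thalamus markers.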

How the data were processed

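The authors deposited log2 values made by RMA from Affymetrix Mouse Gene 1.0 ST arrays (the submitters' notes name RMA, limma and mm10). The sources used here do not say which arrays shared a normalisation, and scanner files were not used. Of 35556 probe sets, 21789 had 1 gene symbol, 1621 several and 12146 none listed. The brightest probe set stood for each of 19938 genes. The floor was set at the 90th percentile of 1015 olfactory receptor gene means, and 15162 genes exceeded it. Groups came from the sample titles (5 Dp1Yey, 5 control). The group difference was estimated in R 4.3.3 by limma 3.58.1 (lmFit, eBayes, group only), two-sided, Benjamini-Hochberg adjusted over all genes. The study's rank test was rewritten as an alternative (trim 0.25, tails 0.025 and 0.975). Correlations with Fos used 100000 permutations, and those of all pairs every one of 3628800 orders. The smallest p of the former is 1e-05. Code was tested on simulated data.

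Members, their division into fast and late and all gene lists were chosen with earlier results of these data known. Every array value was given for 10 widely used members and the 5 of smallest p. Genes outside the set were named as the 10 most and 5 least like the fast mean, up to 4 of smallest p of the further activity genes and the upstream regulators, and up to 3 of the other lists. Errfi1 was named after its value was seen, and of each list of cell types in the tissue only the first gene was named. Alternatives were quantile normalisation, median centring, the floor as a filter, other probe set summaries, a trended robust prior, array weights, the replicate block, the interquartile range as a covariate, and leaving out arrays. The test of all pairs of members, its alternatives and the regression on the interquartile range within it were added after seeing the data.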

Additional observations from a re-analysis of the deposited data

Results flagged for a closer look

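Of 68 sets of 5 arrays examined (34 members in 2 groups), 4 held a value that stood apart from the other 4 by more than 0.71 of the range, where chance gives about 1 in 20. Homer1 was low in Dp1Yey replicate 5, at 9.98 with the nearest of its group at 10.34. In Dp1Yey replicate 5, Ier2 was high, at 6.09 with the nearest at 5.85, in the mouse in which most members were low. Btg2 was low in Dp1Yey replicate 1, at 7.43 with the nearest at 7.70. Bdnf was low in control replicate 4, at 7.12 with the nearest at 7.20.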

How the results depend on the processing

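No member was called by limma with group as the only factor. The rank statistic called 4 members upregulated (2 fast, 2 late), and leave-one-out fits called 0 to 1, the 1 being Egr2 without Dp1Yey replicate 5. Of 714 differences of members under 21 alternatives, 68 turned sign, and 14 members kept their sign throughout. With the interquartile range as a covariate the turned values were Junb 0.0054, Egr1 -0.046, Arc -0.085, Ier2 0.064, Ier5 -0.073, Gadd45b -0.036, Per1 -0.063, Maff -0.078, Trib1 -0.055, Dusp4 -0.026, Homer1 -0.12, Bdnf -0.016, Inhba -0.029 and Rgs2 -0.016. With median centring they were Junb 0.047, Npas4 0.021, Ier2 0.023, Gadd45g 0.018, Fosl2 0.034, Nr4a2 0.013 and Dusp6 0.041. Without control replicates 1 and 2 together they were Junb 0.0086, Arc -0.013, Ier2 0.0080, Ier5 -0.026, Maff -0.051, Trib1 -0.031, Dusp6 0.019 and Homer1 -0.034. A new quantile normalisation turned Ier2 (0.032) and Homer1 (-0.0038), and array weights turned Dusp6 (0.029). Leave-one-out ranges that crossed 0 were -0.018 to 0.13 for Fos, -0.031 to 0.025 for Junb, -0.12 to 0.038 for Npas4, -0.078 to 0.0056 for Ier2, -0.13 to 0.037 for Gadd45g, -0.024 to 0.066 for Maff, -0.024 to 0.095 for Trib1, -0.11 to 0.059 for Fosl2, -0.099 to 0.013 for Nr4a2, -0.0034 to 0.13 for Dusp4, -0.037 to 0.042 for Dusp6, -0.033 to 0.099 for Homer1 and -0.020 to 0.016 for Bdnf. The cause was not tested. The median over all genes stayed within 0.032 of 0 under every alternative.

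The number of members correlated with Fos was 1, which was Npas4 by r and Junb in its place by rho. It was 0 when Fos was permuted within groups, 0 without the 2 arrays farthest from its median, 2 with median centring and 0 to 1 in leave-one-out runs, with 0 without control replicate 1 and 0 without control replicate 2. The number of correlated pairs, 46, was 130 with median centring, 34 when permuted within groups, 9 without control replicates 1 and 2 together and 5 to 35 in leave-one-out runs. The median correlation of the fast genes (0.47) was 0.57 for a core of 12, 0.41 without removing group means, 0.57 with median centring, 0.42 with the interquartile range regressed out and 0.43 to 0.58 in leave-one-out runs. That of the late genes (0.46) was 0.37 for a core of 6, 0.56 with median centring, 0.36 with the interquartile range regressed out and 0.35 to 0.56 in leave-one-out runs.

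The labels do not say what a replicate number stands for, so whether same-numbered mice were paired is not known. Deviations of same-numbered arrays correlated at 0.062, 0.0088, 0.040, 0.22 and -0.33. With the replicate block 0 members were called and Egr2 had an adjusted p of 0.147. Over all genes, 137 up and 22 down became 90 and 4 with the block, 294 and 14 with median centring, 44 and 2 with the interquartile range, 491 and 198 by the rank statistic, 155 and 46 with quantile normalisation, 191 and 46 with array weights, 159 and 36 with the trended prior, 111 and 6 without control replicates 1 and 2, and 65 to 166 and 3 to 70 in leave-one-out fits. Arrays give no read depth, and 5 per group limit the precision, with a median half-width of the 95% interval of 0.18 log2 units over the members.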
